A study of Arabidopsis thaliana with 24 samples.

Results

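The effector genes of cold, drought and abscisic acid (ABA) responses encode the proteins and enzymes that protect plant cells from loss of water. In Arabidopsis thaliana 10 of them were described, RD29A (AT5G52310), RD29B (AT5G52300), COR15A (AT2G42540), KIN1 (AT5G15960), COR6.6, also called KIN2 (AT5G15970), RAB18 (AT5G66400), COR47 (AT1G20440), ERD10 (AT1G20450), GolS1 (AT2G47180) and GolS2 (AT1G56600). They were chosen by gene identifier, and all 10 were found among the 25960 genes of the deposited tables. The study followed shoot regeneration from hypocotyl explants of the Columbia accession (Col-0), in wild type (WT) and in the mutant siz1-2, which carries a defective SIZ1, the gene of a SUMO E3 ligase that attaches the small protein SUMO to other proteins. Seedlings of both genotypes grew for 7 days in the dark at 22 °C. Explants of about 10 mm were sampled within 15 minutes of cutting (0 d), after 4 days in constant light on callus-inducing medium (CIM 4 d; 2,4-D, an auxin, at 0.5 µg/ml with kinetin, a cytokinin, at 0.05 µg/ml), or after a further 4 or 6 days on shoot-inducing medium (SIM 4 d and SIM 6 d; IAA, an auxin, at 0.15 µg/ml with 2-IPA, a cytokinin, at 0.5 µg/ml). Each of the 8 groups had 3 libraries, 24 in all. For replicates 2 and 3 of SIM 6 d the descriptions swap the lengths of the CIM and SIM steps, so titles and sampling times placed them.

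Cold activates the CBF (DREB1) transcription factors through ICE1, and drought activates DREB2A. These factors bind the DRE/CRT element of effector genes, while ABA acts through receptors, PP2C phosphatases and SnRK2 kinases on ABF factors, which bind the ABRE element. The effectors then made include dehydrins, other hydrophilic proteins of the late-embryogenesis type, and galactinol synthases, which supply the sugars of the raffinose family. SIZ1 is known to attach SUMO to ICE1 and to ABI5, a factor of the ABA pathway.

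Values are reads per 1000000 library reads (rpm) of the isoform with the highest mean, and library totals ranged from 7979350 to 15591781 reads. As a check of the mutant, the 12 WT libraries each held 216 to 493 reads of the 3′ end of SIZ1 (reads of isoform 1 less those of isoform 3), and the siz1-2 libraries, also 12, held −1 to 0. Of 9 callus and root meristem markers, 9 were higher at CIM 4 d than at 0 d in WT, where 49.1% of all tested genes were called higher. In bulk tissue, fewer cells of a type and less RNA per cell cannot be told apart. For 4 libraries, 100 to 313 genes lay more than 4-fold outside both other libraries of their group. WT SIM 6 d replicate 2 had 8514 rpm summed over 12 heat shock genes, against 156 rpm in the lowest library of its group. WT CIM 4 d replicate 2 and siz1-2 CIM 4 d replicate 3 had 1116 and 1133 rpm summed over 12 salicylic acid genes, where the lowest libraries of their groups had 74.0 and 68.7 rpm. WT 0 d replicate 1 had 1388 rpm summed over 13 photosynthesis genes, against 255 and 301 rpm in replicates 2 and 3. Where leaving these 4 libraries out ended or gave a call, or moved a difference by over 1.5 times, the value without them is given too. The part these signals had in the results was not tested. The 4 were picked for standing apart in these same data. Leaving them out can therefore make the estimated spread, and with it the adjusted p, too small.

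The 300 bases before the annotated start of each member were searched on both strands for the DRE/CRT core CCGAC, the ABRE core ACGTG and the heat shock element GAANNTTC (RefSeq, TAIR10.1). The DRE/CRT core was found in 4 of the 10 members and in 13.9% of the 27443 windows of this length in the genome. The ABRE core was found in 7 members and 25.6% of windows, and the heat shock element in GolS1 and GolS2 and 11.5% of windows. COR47 and ERD10 held none of the 3 in this window. Their annotated 5′ untranslated regions span 1209 and 499 bases. Those of RD29A, COR15A, KIN1 and COR6.6 span 212, 324, 275 and 247 bases. For no member was the sequence between the annotated start and the coding start searched. A missing motif therefore holds for this window only, and not for the whole promoter. A palindromic CACGTG counts as 2 ABRE cores, 1 on each strand. The windows of 6 members are printed because they cover the neighbours RD29A and RD29B, which differ in these motifs but fell together, the neighbours KIN1 and COR6.6, the members higher in siz1-2 on callus medium, the nearly silent COR15A, and GolS1, which was highest in the library with the heat shock signal. They lie at chr5:21240417-21240716 (RD29A, plus strand), chr5:21236721-21237020 (RD29B, plus), chr2:17712331-17712630 (COR15A, minus), chr5:5209417-5209716 (KIN1, plus), chr5:5211419-5211718 (COR6.6, plus) and chr2:19370479-19370778 (GolS1, minus). Each is read 5′ to 3′ in the direction of its gene and ends at the base before the start, and capitals mark the motif matches.
RD29A: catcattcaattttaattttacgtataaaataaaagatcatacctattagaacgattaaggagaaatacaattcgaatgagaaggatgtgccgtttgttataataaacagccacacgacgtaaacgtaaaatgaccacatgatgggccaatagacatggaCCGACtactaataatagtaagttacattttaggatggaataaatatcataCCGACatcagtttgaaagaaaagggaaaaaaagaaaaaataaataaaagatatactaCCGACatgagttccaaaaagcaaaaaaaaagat
RD29B: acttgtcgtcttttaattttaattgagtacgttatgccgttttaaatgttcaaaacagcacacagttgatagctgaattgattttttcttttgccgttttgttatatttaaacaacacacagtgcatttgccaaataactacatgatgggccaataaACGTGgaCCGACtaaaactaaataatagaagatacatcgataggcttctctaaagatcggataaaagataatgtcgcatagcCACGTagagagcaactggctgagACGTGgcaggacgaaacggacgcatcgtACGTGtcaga
COR15A: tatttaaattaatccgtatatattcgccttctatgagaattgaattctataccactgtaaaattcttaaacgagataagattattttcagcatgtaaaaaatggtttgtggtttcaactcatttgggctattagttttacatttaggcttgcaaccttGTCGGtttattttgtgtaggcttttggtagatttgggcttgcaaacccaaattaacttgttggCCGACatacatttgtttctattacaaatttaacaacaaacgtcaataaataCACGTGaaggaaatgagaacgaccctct
KIN1: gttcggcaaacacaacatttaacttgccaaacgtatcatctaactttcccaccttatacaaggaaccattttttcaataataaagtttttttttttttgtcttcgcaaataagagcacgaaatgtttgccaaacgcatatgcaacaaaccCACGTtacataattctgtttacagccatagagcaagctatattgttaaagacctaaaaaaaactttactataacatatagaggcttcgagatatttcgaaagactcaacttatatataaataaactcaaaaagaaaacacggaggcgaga
COR6.6: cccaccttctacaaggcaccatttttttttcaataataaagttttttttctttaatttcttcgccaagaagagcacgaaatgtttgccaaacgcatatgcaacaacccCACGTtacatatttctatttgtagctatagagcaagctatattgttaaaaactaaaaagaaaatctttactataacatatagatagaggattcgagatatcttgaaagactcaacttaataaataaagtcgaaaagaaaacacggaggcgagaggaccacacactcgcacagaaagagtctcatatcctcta
GolS1: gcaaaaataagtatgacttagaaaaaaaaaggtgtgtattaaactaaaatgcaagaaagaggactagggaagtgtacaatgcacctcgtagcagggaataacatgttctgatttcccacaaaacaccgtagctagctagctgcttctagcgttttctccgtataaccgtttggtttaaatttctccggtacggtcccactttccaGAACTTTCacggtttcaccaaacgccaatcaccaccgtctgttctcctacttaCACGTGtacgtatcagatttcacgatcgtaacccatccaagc
The 3 DRE/CRT cores of RD29A began 140, 90 and 33 bases before its start. RD29B had 1 DRE/CRT core and 4 ABRE cores. KIN1 and COR6.6 shared the run around their only match, an ABRE core that began 150 bases before the start of KIN1 and 192 before that of COR6.6. In GolS1 the heat shock element spanned positions −95 to −88. A match describes the letters of the window and does not show binding.

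**Figure D1:**
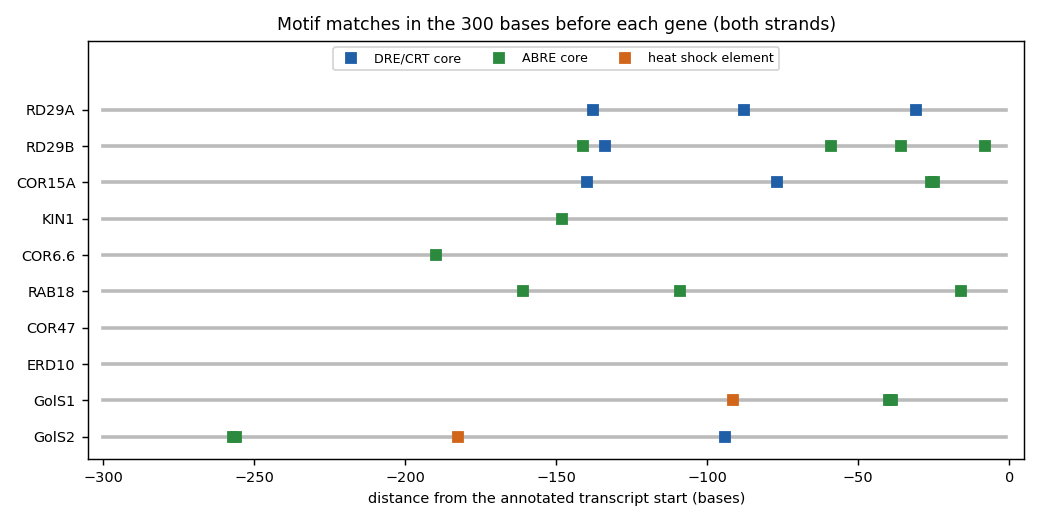
Motif matches in the 300 bases before the annotated start of each of the 10 members; the x axis is distance from the start in bases, and each square is 1 match on either strand. RD29A carries 3 DRE/CRT cores, RAB18 carries 3 ABRE cores, GolS1 and GolS2 each carry 1 heat shock element, and COR47 and ERD10 carry none.

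In freshly cut WT hypocotyls the dehydrins COR47 and ERD10 were the most abundant members per transcript length, with RD29A and RD29B next. Mean levels per kb of transcript were 568 rpm for COR47, 208 rpm for ERD10, 95.1 rpm for RD29A and 54.1 rpm for RD29B, and the libraries of these 4 genes did not overlap on this scale. COR6.6, GolS1, KIN1 and GolS2 followed at 25.4, 21.0, 20.5 and 19.5 rpm per kb, and their libraries overlapped. The COR6.6 and KIN1 means rested on WT 0 d replicate 1, at 59.8 and 43.4 rpm per kb, and there COR6.6 lay above every RD29B library. Without that library their means were 8.14 and 9.02 rpm per kb, below GolS1 and GolS2 at 22.4 and 21.1 rpm per kb. RAB18 was at 2.02 rpm per kb and COR15A at 0.0357 rpm per kb. At SIM 4 d the order in WT was different. COR6.6 led with 514 rpm per kb, before ERD10 and KIN1 at 112 and 103 rpm per kb, whose libraries overlapped, and COR47 and GolS1 at 29.8 and 27.4 rpm per kb, which overlapped too. RD29A was then at 2.88 rpm per kb and GolS2, COR15A, RD29B and RAB18 were below 0.1 rpm per kb.

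COR15A, which encodes a chloroplast protein that protects membranes in freezing, was close to absent. Its 24 libraries ranged from 0 to 3.40 rpm, and the highest, siz1-2 CIM 4 d replicate 3, held 37 reads. The other siz1-2 CIM 4 d libraries had 0.185 and 0.628 rpm, and WT CIM 4 d had 0, 0.760 and 0.251 rpm. The highest library of each CIM group was that with the salicylic acid signal. COR15A did not reach the level needed for testing (1 rpm in at least 3 libraries), so 9 members were tested. COR15B, its near copy 7 bases away, had at most 1 read summed over any group.

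**Figure D2:**
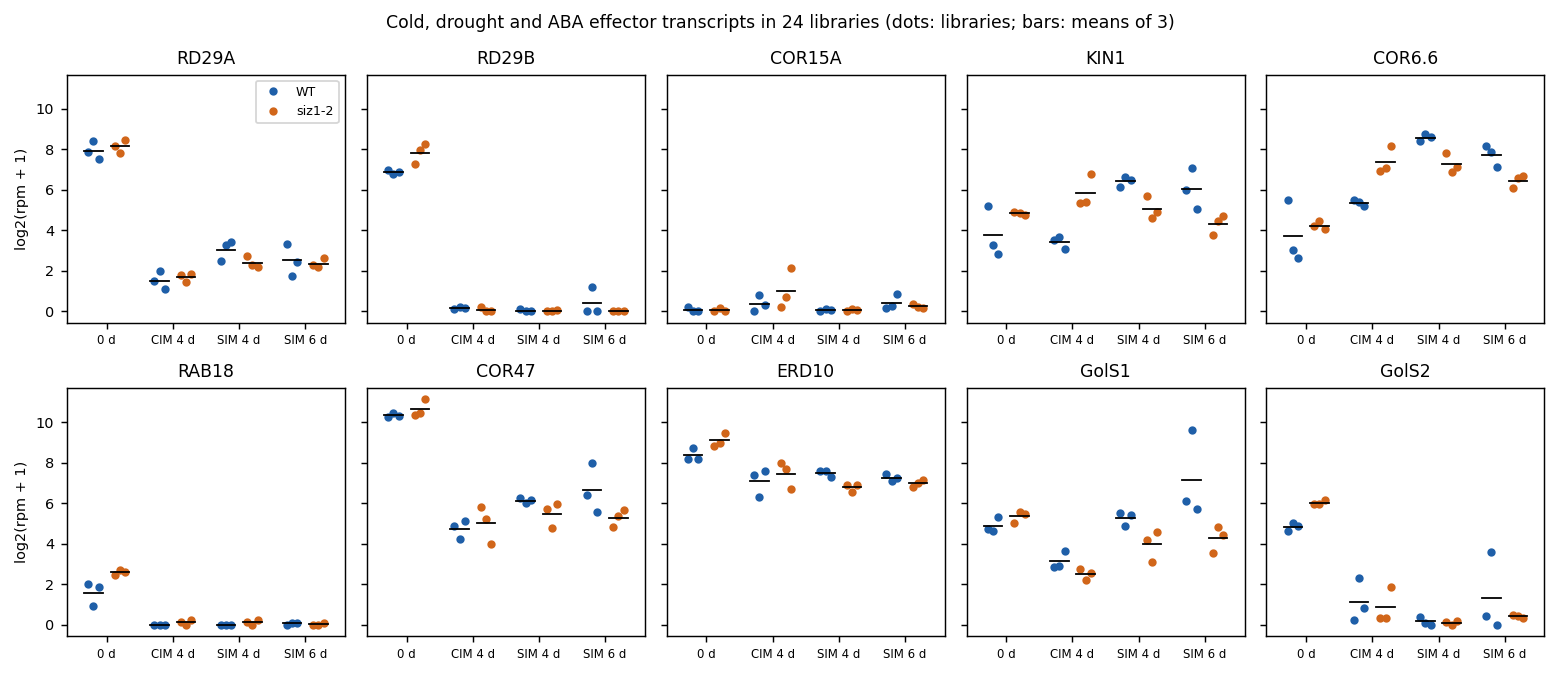
Levels of the 10 members in 24 libraries as log2(rpm + 1), by stage on the x axis and by genotype in colour; dots are libraries and bars are means of 3. RD29A, RD29B, RAB18, COR47 and GolS2 are highest at 0 d, COR6.6 is highest at SIM 4 d in WT, and COR15A stays at or below 3.40 rpm.

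Over the 4 days from cutting to callus, most of the effectors fell in WT, several of them to near zero. Light, hormones, time since cutting and age all changed over this step, so their parts cannot be told apart. Of the 9 tested members, 7 fell and 1 rose. Of 20361 tested genes, 75.7% were called, 26.6% lower and 49.1% higher (limma, Benjamini-Hochberg adjusted p below 0.05, on log2(rpm + 1)). The 8 members called are near the share in either direction. RD29A, the classic read-out of cold, drought and ABA, had 233, 341 and 185 rpm at 0 d and 1.79, 2.96 and 1.13 rpm at CIM 4 d. The 2 groups lay far apart, a difference of −6.42 ± 0.34 (log2 ± SE; limma adjusted p = 2.1e-12). RD29B, which responds mainly to ABA, had 124, 109 and 120 rpm at 0 d and 0.0945, 0.169 and 0.125 rpm at CIM 4 d. The CIM libraries held 4 RD29B reads in all, and the fitted difference was −6.71 ± 0.25 (limma adjusted p = 7.07e-15). RAB18, an ABA-responsive dehydrin, had 2.98, 0.872 and 2.63 rpm at 0 d and no read at CIM 4 d. Against 3 reads over the CIM group, RAB18 was at least 21.7-fold higher at 0 d, and the fitted difference, which depends on the pseudocount, was −1.58 ± 0.19 (limma adjusted p = 2.18e-07). COR47, an acidic dehydrin, went from 1239, 1427 and 1288 rpm to 28.3, 17.7 and 34.2 rpm (−5.62 ± 0.49, limma adjusted p = 4.98e-09). Its tandem neighbour ERD10, also a dehydrin, kept more of its level, with 295, 427 and 288 rpm at 0 d and 170, 79.7 and 195 rpm at CIM 4 d. The ERD10 groups did not overlap, and the difference was −1.25 ± 0.31 (limma adjusted p = 0.00108). GolS2, a galactinol synthase known from drought, went from 23.7, 31.6 and 28.9 rpm to 0.189, 3.89 and 0.752 rpm (−3.73 ± 0.65, limma adjusted p = 3.86e-05). The highest GolS2 value on CIM was in replicate 2, the library with the salicylic acid signal. GolS1 fell less, from 25.3, 23.6 and 38.7 rpm to 6.14, 6.59 and 11.7 rpm (−1.74 ± 0.67, limma adjusted p = 0.0255). This call was lost without WT 0 d replicate 3 (0.0813), WT CIM 4 d replicate 1 (0.0714) or replicate 2 (0.0658). TMM and median-of-ratios scaling shifted the median of all genes over this step by −0.30 and −0.36 and ended none of the 8 calls.

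COR6.6 was the member that rose on callus medium, and its neighbour KIN1 was not called. Both encode small hydrophilic proteins induced by cold and ABA. COR6.6 had 44.9, 7.07 and 5.14 rpm at 0 d and 43.7, 41.7 and 36.3 rpm at CIM 4 d (1.66 ± 0.51, limma adjusted p = 0.00701). WT 0 d replicate 1 reached the CIM levels, so the groups overlapped. Without the 4 libraries, replicate 1 among them, the COR6.6 difference was 2.54 ± 0.32, while edgeR and DESeq2 on the reads did not call it (adjusted p = 0.226 and 0.287), and it was also lost without WT 0 d replicate 3 (limma adjusted p = 0.0604) and when only the groups compared were fitted (0.0658). KIN1 had 36.0, 8.72 and 6.24 rpm at 0 d and 10.6, 11.7 and 7.52 rpm at CIM 4 d, and these groups overlapped.

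In siz1-2 the same step gave 7 lower and 1 higher of 9 tested members. Of all genes 77.0% were called, 27.3% lower and 49.6% higher. RD29A had 289, 224 and 356 rpm at 0 d and 2.50, 1.704 and 2.57 rpm at CIM 4 d (−6.47 ± 0.34, limma adjusted p = 1.41e-12). RD29B went from 156, 248 and 310 rpm to 0.185, 0 and 0 rpm. The 2 reads left on CIM give a ratio of 3864 with a 95% counting interval of 1069 to 31910, and the fitted difference was −7.76 ± 0.25 (limma adjusted p = 6.93e-16). COR47 had 1331, 1427 and 2263 rpm at 0 d and 54.8, 36.9 and 15.0 rpm at CIM 4 d (−5.65 ± 0.49, limma adjusted p = 3.99e-09). ERD10, GolS1, GolS2 and RAB18 fell as well, by 1.64, 2.84, 5.17 and 2.47 on the log2 scale. GolS1 had 31.2, 47.1 and 42.7 rpm at 0 d and 5.65, 3.68 and 4.96 rpm at CIM 4 d, so its groups lay apart. COR6.6 rose from 17.56, 21.1 and 15.7 rpm to 122, 134 and 283 rpm (3.15 ± 0.51, limma adjusted p = 1.81e-05). KIN1 had 28.7, 28.1 and 26.4 rpm at 0 d and 39.9, 41.4 and 109 rpm at CIM 4 d. These KIN1 groups did not overlap, but the difference of 1.00 ± 0.54 was not called (limma adjusted p = 0.0961), and it was 0.54 ± 0.32 without the 4 libraries (0.139). The 2 genotypes share the stages and not the libraries, and their difference over this step, tested as an interaction, called 0 of 9 members and 3.15% of all genes. Of the members, 2 had an unadjusted p below 0.05 in that test, RD29B (−1.05 ± 0.35, limma adjusted p = 0.118) and RAB18 (−0.89 ± 0.27, 0.0792), and edgeR and DESeq2 also called 0. On the reads the RAB18 interaction had the opposite sign, 1.96 with edgeR (adjusted p = 0.592) and 1.06 with DESeq2 (0.843). In the limma fit without the 4 libraries, RAB18 (−1.15 ± 0.30, adjusted p = 0.0418) and GolS2 (−1.25 ± 0.27, 0.0168) were called, among 3.23% of genes.

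Moving WT callus to shoot medium raised 5 of the 9 tested members and lowered 0. Of all genes 45.7% were called, 21.2% higher and 24.5% lower. COR6.6 was at 342, 430 and 385 rpm at SIM 4 d, and all 3 libraries lay above the CIM libraries (3.21 ± 0.51, limma adjusted p = 5.73e-05). KIN1 was at 70.3, 97.3 and 88.7 rpm (2.99 ± 0.54, limma adjusted p = 0.000177), again with no overlap. GolS1 was at 44.6, 28.0 and 41.8 rpm (2.12 ± 0.67, limma adjusted p = 0.0153). RD29A rose to 4.54, 8.64 and 9.80 rpm (1.54 ± 0.34, limma adjusted p = 0.0011), still far below its 0 d libraries. COR47 rose to 75.3, 63.0 and 69.4 rpm (1.39 ± 0.49, limma adjusted p = 0.0281). The COR47 call was lost without WT CIM 4 d replicate 2 (0.109), WT SIM 4 d replicate 1 (0.0696) or replicate 3 (0.0629). ERD10 stayed within its range on CIM, at 192, 194 and 158 rpm. RAB18 had no read at SIM 4 d and GolS2 had 5. RD29B had 1 read in 3 libraries, each library lower in rpm than those on CIM, and the fitted difference was −0.14 ± 0.25 (limma adjusted p = 0.679).

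In siz1-2 the move to shoot medium called 0 of 9 members with limma, while 53.9% of all genes were called. At an unadjusted p below 0.05 there were 3 members, edgeR called 1 and DESeq2 called 2. No share of all genes is given for these counts, so they cannot be set against the 53.9%. RD29A had 5.74, 3.89 and 3.53 rpm at SIM 4 d, above its CIM libraries (0.71 ± 0.34, limma adjusted p = 0.0845). GolS1 had 17.39, 7.70 and 22.9 rpm, also above its CIM libraries (1.46 ± 0.67, limma adjusted p = 0.0764). ERD10 had 121, 94.2 and 117 rpm, and the difference from CIM 4 d was −0.67 ± 0.31 (limma adjusted p = 0.0732). COR6.6, at 223, 119 and 141 rpm, and KIN1, at 50.2, 23.8 and 29.0 rpm, overlapped their CIM libraries. GolS2 was lower in every SIM 4 d library, at no more than 0.128 rpm, than on CIM, at 0.278, 0.269 and 2.66 rpm, with a difference of −0.76 ± 0.65 (limma adjusted p = 0.343) and of −0.25 ± 0.18 without the 4 libraries (0.265). Without the 4 libraries, siz1-2 CIM 4 d replicate 3 among them, GolS1 (1.49 ± 0.44, limma adjusted p = 0.0103) and ERD10 (−1.05 ± 0.19, 0.000245) were called, among 52.9% of genes.

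Whether this step differed between the genotypes was tested as an interaction. It called 1 of 9 members, KIN1, where 0.211% of all genes were called. The change of KIN1 in siz1-2 minus that in WT was −3.76 ± 0.76 on the log2 scale (limma adjusted p = 0.0456). The KIN1 call was lost without any 1 of the 12 libraries (adjusted p from 0.051 to 0.152), while the difference stayed between −4.07 and −3.30. Its neighbour COR6.6 gave −3.32 ± 0.73 (limma adjusted p = 0.0775) and ERD10 gave −1.05 ± 0.43 (0.451), both with an unadjusted p below 0.05. KIN1 and COR6.6 were both called without the 4 libraries, KIN1 at −3.42 ± 0.45 (limma adjusted p = 0.00222) and COR6.6 at −2.96 ± 0.41 (0.00407), among 0.263% of genes.

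From SIM 4 d to SIM 6 d, limma called 0 of 9 members in WT (0.589% of all genes), 0 in siz1-2 (0.629%) and 0 in the interaction (0.00982%). In WT 1 member, GolS1, had an unadjusted p below 0.05, DESeq2 called 1 and edgeR called 0. In siz1-2 and in the interaction there were 0 by each of these counts, for which no share of all genes is given. COR6.6 was lower in all 3 SIM 6 d libraries than in any SIM 4 d library of its genotype, with 288, 235 and 138 rpm in WT and 66.7, 96.1 and 103 rpm in siz1-2. The differences were −0.86 ± 0.51 (limma adjusted p = 0.499) and −0.83 ± 0.51 (0.787). GolS2 in siz1-2 lay slightly above its SIM 4 d libraries, by 0.32 ± 0.65 (limma adjusted p = 0.997).

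Between the genotypes, freshly cut siz1-2 hypocotyls had more RD29B and RAB18, the members most tied to ABA. Of 9 tested members, 2 were higher and 0 lower, where 11.0% of all genes were called. All 3 RD29B libraries of siz1-2 (156, 248 and 310 rpm) lay above those of WT (124, 109 and 120 rpm), a difference of 0.96 ± 0.25 (limma adjusted p = 0.0156). RAB18 had 4.57, 5.50 and 5.11 rpm in siz1-2, again above all 3 WT libraries (1.01 ± 0.19, limma adjusted p = 0.0014). GolS2 had 61.3, 61.9 and 70.3 rpm in siz1-2 and at most 31.6 rpm in WT. ERD10 had 461, 497 and 719 rpm in siz1-2 and at most 427 rpm in WT. Neither was called, with differences of 1.18 ± 0.65 for GolS2 (limma adjusted p = 0.278) and 0.73 ± 0.31 for ERD10 (0.142). RD29A and COR47 overlapped between the genotypes.
The count at 0 d depended on the libraries and on the test. KIN1 and COR6.6 were 4.13- and 6.35-fold higher in WT 0 d replicate 1 than in the higher of replicates 2 and 3. Without the 4 libraries, 6 members were higher and 0 lower (11.4% of genes): RD29B (1.00 ± 0.20), RAB18 (1.21 ± 0.20), GolS2 (1.07 ± 0.18), ERD10 (0.64 ± 0.19), KIN1 (1.78 ± 0.32) and COR6.6 (1.43 ± 0.29), with limma adjusted p from 0.000583 to 0.0397. On the reads, edgeR and DESeq2 called 0 of the members, with adjusted p of 0.0598 and 0.705 for RD29B and 0.148 and 0.158 for RAB18. The RD29B call was also lost without WT 0 d replicate 2 (limma adjusted p = 0.0594), siz1-2 0 d replicate 2 (0.0572) or replicate 3 (0.0992). The 12 heat shock genes summed to 1080 to 2375 rpm in the siz1-2 libraries at 0 d and to 229 to 326 rpm in WT. The seed and embryo markers summed to 92.1 to 121 rpm in siz1-2 and to 4.27 to 16.0 rpm in WT. Of these 8 markers 1 was tested, and it was called higher in siz1-2, by 4.17 on the log2 scale. Among all genes, 4.37% were called higher. The part of both lists in the differences of the members was not tested.

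**Figure D3:**
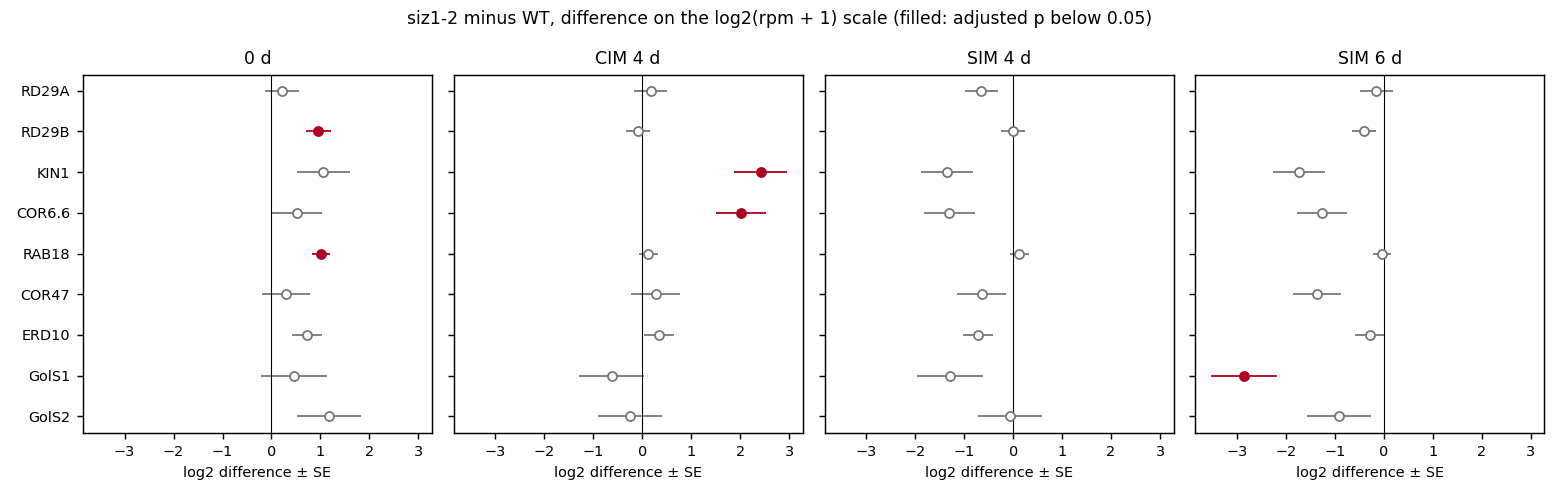
Difference siz1-2 minus WT for the 9 tested members at each stage, on the log2(rpm + 1) scale; points are fitted differences, lines are ± SE, and filled red points passed an adjusted p of 0.05. RD29B and RAB18 are higher at 0 d, KIN1 and COR6.6 are higher at CIM 4 d, and GolS1 is lower at SIM 6 d.

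On callus medium KIN1 and COR6.6 were higher in siz1-2, the 2 members called among 9, where 2.2% of all genes were called. The 3 siz1-2 libraries of each gene lay above the 3 WT libraries, by 2.42 ± 0.54 for KIN1 (limma adjusted p = 0.0186) and 2.02 ± 0.51 for COR6.6 (0.0468). Both were highest in siz1-2 CIM 4 d replicate 3, the library with the salicylic acid signal. Without it the difference was 1.95 for KIN1 (limma adjusted p = 0.0794) and 1.64 for COR6.6 (0.146). The KIN1 call was also lost without WT CIM 4 d replicate 1 (0.0574) or replicate 3 (0.0872), and the COR6.6 call without any 1 of the 6 libraries (0.0626 to 0.146). Without all 4 libraries both were called, KIN1 at 2.07 ± 0.35 (limma adjusted p = 0.00416) and COR6.6 at 1.66 ± 0.32 (0.0105), among 2.54% of genes.

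On shoot medium the direction of both genes was the other way. At SIM 4 d, limma called 0 of 9 members, where 2.2% of all genes were called, edgeR and DESeq2 also called 0, and 3 members had an unadjusted p below 0.05. KIN1 and COR6.6 were lower in all 3 siz1-2 libraries than in any WT library, by differences of −1.35 ± 0.54 (limma adjusted p = 0.242) and −1.30 ± 0.51 (0.239). ERD10, GolS1 and COR47 did not overlap either, with differences of −0.71 ± 0.31, −1.30 ± 0.67 and −0.65 ± 0.49 (limma adjusted p from 0.289 to 0.613). The share of all genes whose groups did not overlap is not given, so these separations cannot be weighed against it. Without the 4 libraries, which hold no SIM 4 d library, KIN1, COR6.6 and ERD10 were called at the same differences (limma adjusted p = 0.0135, 0.00983 and 0.0249), among 4.96% of genes. The differences did not move, and the SE of KIN1 was 0.29 in place of 0.54. At SIM 6 d, 1 of 9 members was lower and 0 higher, where 3.01% of all genes were called. It was GolS1, which is described library by library further on. KIN1 (−1.74 ± 0.54, limma adjusted p = 0.0977), COR6.6 (−1.27 ± 0.51, 0.261) and COR47 (−1.36 ± 0.49, 0.179) had unadjusted p below 0.05. At SIM 6 d KIN1 had 62.5, 136 and 32.9 rpm in WT and 12.7, 21.2 and 25.2 rpm in siz1-2. KIN1 (−1.22 ± 0.32, limma adjusted p = 0.0492) and COR6.6 (−1.19 ± 0.29, 0.0348) were called without the 4 libraries, among 3.77% of genes. In that fit GolS1 was not called, and COR47 gave −0.70 ± 0.35 (limma adjusted p = 0.323).

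KIN1 and COR6.6 lie 892 bases apart on chromosome 5, and 95.0% of the bases of their coding sequences are identical. Their transcripts share identical runs of up to 58 bases, so reads could be counted for either gene; how such reads were counted is not stated in the labels or file headers. The pair changed its balance on culture. COR6.6 had 0.592 to 1.25 reads for each KIN1 read in the 6 libraries at 0 d, and 2.59 to 5.25 in 17 of the 18 libraries in culture. The exception was WT SIM 6 d replicate 2, with 1.72. Over the 24 libraries, which share stages and depth, the Pearson correlation of their log2 levels was 0.80, while COR6.6 and RD29B gave −0.78 and RD29A and RD29B gave 0.96.

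**Figure D4:**
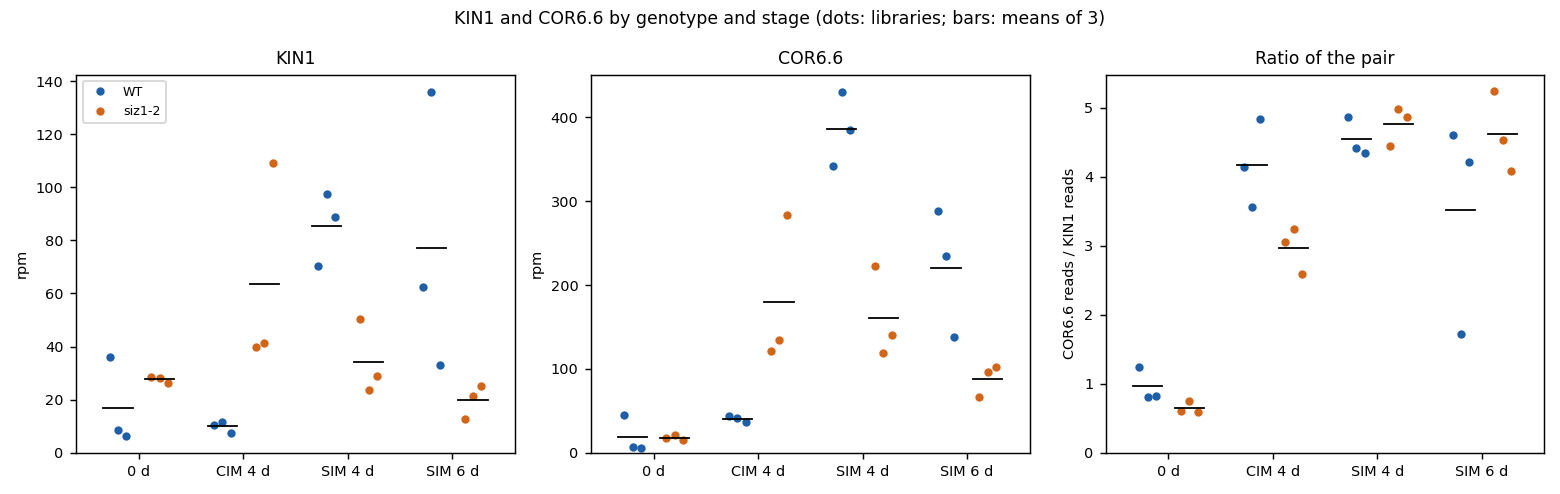
KIN1 and COR6.6 levels in rpm and the ratio of COR6.6 to KIN1 reads, by stage and genotype; dots are libraries and bars are means of 3. WT is highest at SIM 4 d for COR6.6 and siz1-2 is above WT at CIM 4 d and below it at SIM 4 d for both genes, while the ratio is at most 1.25 at 0 d and at least 1.72 in culture.

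GolS1, a galactinol synthase known as a target of heat stress factors, was followed library by library. In WT it had 25.3, 23.6 and 38.7 rpm at 0 d, 6.14, 6.59 and 11.7 rpm at CIM 4 d, 44.6, 28.0 and 41.8 rpm at SIM 4 d, and 67.3, 774 and 51.4 rpm at SIM 6 d. The 774 rpm of replicate 2, 10569 reads, were 11.5-fold above the next library of the group. In siz1-2 it had 31.2, 47.1 and 42.7 rpm at 0 d, 5.65, 3.68 and 4.96 rpm at CIM 4 d, 17.39, 7.70 and 22.9 rpm at SIM 4 d, and 10.8, 27.8 and 20.4 rpm at SIM 6 d. In both genotypes the CIM libraries were the lowest, and the siz1-2 libraries lay below the WT libraries at CIM 4 d, SIM 4 d and SIM 6 d. At SIM 6 d the difference siz1-2 minus WT was −2.86 ± 0.67 (limma adjusted p = 0.0243). Without the 4 libraries it was −1.62 and not called (limma adjusted p = 0.0542). The call was also lost without siz1-2 SIM 6 d replicate 1 (0.164) or replicate 3 (0.058), and when only the groups compared were fitted (0.238). It was kept when WT SIM 6 d replicate 2 alone was left out. At CIM 4 d the difference was −0.63 ± 0.67 (limma adjusted p = 0.812). From SIM 4 d to SIM 6 d in WT it was 1.87 ± 0.67 (limma adjusted p = 0.247), and 0.64 ± 0.44 without the 4 libraries (0.55).

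Other members also stood apart in WT SIM 6 d replicate 2. GolS2 had 10.98 rpm there and 0.360 and 0 rpm in replicates 1 and 3. COR47 had 251 rpm, 3.02-fold above the next library, and KIN1 had 136 rpm, 2.17-fold above. RD29B had 18 reads, and 0 in both other libraries. RD29A, at 2.42 rpm, and ERD10, at 135 rpm, were the lowest of their groups. In the same library HSP18.2, a small heat shock protein, had 2156 rpm against 13.5 and 14.6 rpm, and HSP101, a disaggregating chaperone, had 283 rpm against 32.3 and 30.2 rpm. At 0 d in siz1-2, HSP101 had 89.9, 193 and 149 rpm and HSP18.2 had at most 3.33 rpm. These 2 genes do not describe the whole list, of which 5 of 11 tested genes were called higher there than in WT and 0 lower. Among all genes, 4.37% were called higher. GolS1 at 0 d overlapped between the genotypes. How far the heat shock signal accounts for the GolS1 level was not tested.

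**Figure D5:**
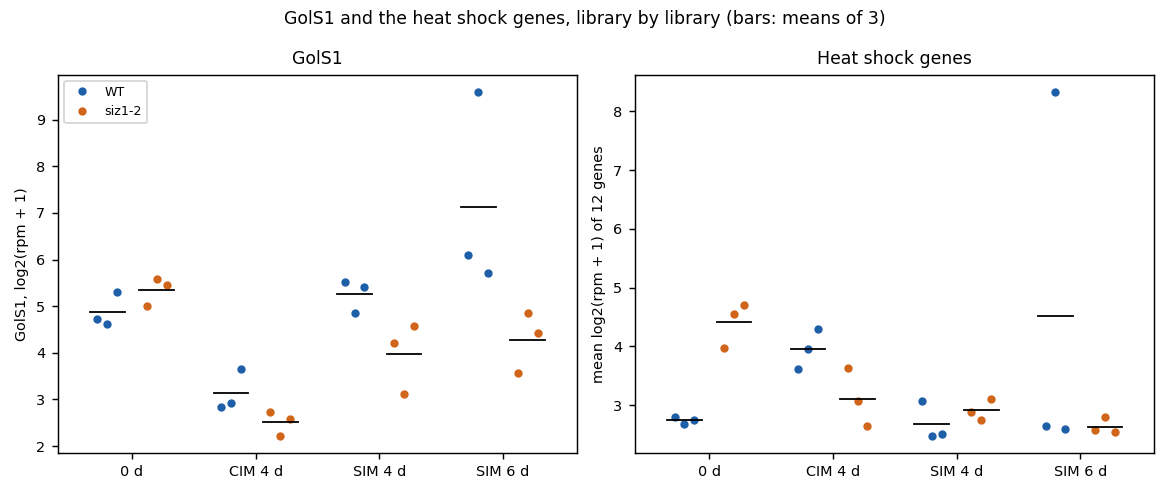
GolS1 as log2(rpm + 1) beside the mean log2(rpm + 1) of 12 heat shock genes, by stage and genotype; dots are libraries and bars are means of 3. WT SIM 6 d replicate 2 is the highest library in both panels, and the siz1-2 libraries at 0 d are above WT for the heat shock genes but overlap WT for GolS1.

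The genes whose levels followed GolS1 most closely over the 24 libraries were CHL (Pearson r = 0.86), ANNAT7 (0.851), AT1G56300 (0.827), AT1G14120 (0.827) and PTAC5 (0.82). Without WT SIM 6 d replicate 2 they were AT3G59340 (0.945), CYP71A28 (0.928), AT4G21910 (0.918), AT1G62975 (0.913) and ANNAT7 (0.911), so that ANNAT7 was in both lists. RAB18 was followed by M10 (0.991), AT3G05950 (0.986), AT4G25580 (0.985), LEA18 (0.984) and HKT1 (0.984). COR15A, at its low level, was followed by AT5G59330 (0.89), NAC061 (0.868), AT5G66780 (0.847), AR791 (0.841) and AOX1D (0.836). These are descriptions over libraries that share stages and depth.

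Among 9 tested DREB and cold signalling factors, which act upstream of the effectors, 7 fell and 0 rose from 0 d to CIM 4 d in WT, and 8 fell in siz1-2. In WT the share of the factors called was near the 75.7% of all genes, and in siz1-2 77.0% of all genes were called. The share of all genes called lower was 26.6% in WT and 27.3% in siz1-2. CBF2 had 1.99, 8.37 and 7.11 rpm in WT at 0 d, and CBF3 had 0.993, 3.93 and 5.36 rpm. At CIM 4 d in WT neither exceeded 0.189 rpm, and the differences were −2.39 ± 0.29 for CBF2 (limma adjusted p = 2.74e-07) and −1.85 ± 0.28 for CBF3 (5.08e-06). At 0 d, 6 of the 9 factors were higher in siz1-2 and 0 lower, where 11.0% of all genes were called and 4.37% were called higher, with a list median of 1.00 against −0.07 over all tested genes. DREB2A, the main drought factor of the family, had 23.7, 27.4 and 36.7 rpm in WT and 138, 208 and 220 rpm in siz1-2 (2.64, limma adjusted p = 3.81e-06). CBF3 (1.81, 0.000215), DREB2B (1.47, 0.00142), CBF2 (1.00, 0.0305) and CBF1 (0.95, 0.00736) were higher too, although CBF1 did not exceed 2.94 rpm. WT 0 d replicate 1 was the lowest library of its group for these 3 CBF genes, and without the 4 libraries the difference was 0.48 for CBF2, no longer called (limma adjusted p = 0.157), 0.61 for CBF1 (0.0385) and 1.31 for CBF3 (0.000166). The DREB2A difference between 0 d and CIM 4 d was larger in siz1-2, with an interaction of −3.42 (limma adjusted p = 4.97e-05). In culture 1 factor was called between the genotypes, ICE1, the activator of the CBF genes. ICE1 was higher in siz1-2 at CIM 4 d (0.98, limma adjusted p = 0.0306, and 0.92 and 0.127 without the 4 libraries), where 2.2% of all genes were called.

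Of 9 tested ABA transcription factors, 4 were higher in siz1-2 at 0 d against 11.0% of all genes called, RD26, a NAC factor (1.21, limma adjusted p = 0.00285), ABF4 (0.82, 0.000637), ABF2 (0.54, 0.00102) and ABF3 (0.50, 0.00622). Of 20 receptors, phosphatases and kinases, 5 were higher and 1 lower, against 4.37% and 6.6% of all genes. The phosphatases HAI2 (1.93, limma adjusted p = 3.52e-05), HAI1 (1.52, 0.000442), HAB1 (1.08, 2e-06) and ABI1 (0.63, 0.0378), which hold the pathway down, were among the higher ones, and the receptor gene PYL5 was lower (−0.60, 0.034). Of 10 genes of ABA synthesis and breakdown, 1 was higher in siz1-2 at CIM 4 d, where 2.2% of all genes were called. It was NCED2, a synthesis gene (2.09, limma adjusted p = 2.67e-06). From 0 d to CIM 4 d in WT, 4 of these 10 genes rose and 5 fell. Of the 20 receptors, phosphatases and kinases, 4 rose and 9 fell. Among all tested genes, 49.1% were called higher and 26.6% lower. NCED3, the synthesis gene most tied to drought, fell by 4.25 over this step (limma adjusted p = 1.42e-07). At SIM 4 d and SIM 6 d, ATHB7, a homeodomain factor induced by ABA, was lower in siz1-2 (−1.48, limma adjusted p = 0.000158, and −1.39, 0.000237), as was ABF1 (−0.52, 0.00395, and −0.41, 0.0176). ABI3, the seed regulator of ABA responses, did not exceed 1.74 rpm in any library.

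Of 13 tested effectors outside the 10 members, 9 fell and 1 rose from 0 d to CIM 4 d in WT, and 9 fell and 3 rose in siz1-2. In WT the share called was near the 75.7% of all genes, with 26.6% of all genes called lower and 49.1% higher. In siz1-2, 77.0% of all genes were called, 27.3% lower and 49.6% higher. ERD14, a dehydrin, had 3306, 3378 and 3391 rpm in WT at 0 d and 277, 164 and 309 rpm at CIM 4 d (−3.79, limma adjusted p = 2.97e-11). COR413PM1, a cold-induced membrane protein, fell by 4.17 (limma adjusted p = 1.47e-13). ADH1, alcohol dehydrogenase, rose by 1.69 (limma adjusted p = 5.38e-05). At 0 d, 5 of the 13 were higher in siz1-2 and 0 lower, against 11.0% of all genes called, and LEA4-5, a late-embryogenesis protein, was the one with the largest difference among them (1.72, limma adjusted p = 0.00634). LEA4-5 had 12.8, 5.67 and 6.35 rpm in WT and 24.1, 24.6 and 36.6 rpm in siz1-2. At CIM 4 d LEA4-5 was again higher in siz1-2, with 6.58, 7.17 and 30.4 rpm against at most 0.929 rpm in WT (3.01, limma adjusted p = 8.51e-05), and its highest library was replicate 3. XERO1, a dehydrin, was higher at CIM 4 d as well (1.21, limma adjusted p = 0.00788). Of 3 tested genes of galactinol and raffinose synthesis outside the members, GolS4 was lower in siz1-2 at 0 d (−1.28, limma adjusted p = 0.00943) and at SIM 6 d (−1.50, 0.00805). Of the 3, 2 fell on CIM in WT, where 26.6% of all genes were called lower. GolS4 (1.82, limma adjusted p = 6.92e-05), RS5, a raffinose synthase (1.41, 0.000432), and GolS3 (1.31, 0.00181) rose on moving to SIM, where 21.2% of all genes were called higher.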

How the data were processed

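RNA was measured in 24 libraries, 8 groups of 3, from a stranded mRNA kit. Per the submitters' processing notes, bcl2fastq, Bowtie 1.2.1 and the TAIR10 build were used; how reads were assigned to isoforms, and whether by strand, is not stated there. The authors deposited 1 signal value for each of 33864 isoforms. All values (100%) were whole reads per 1000000 of a library's total, written here as rpm. A read could count for several isoforms, so columns sum to 1533760 to 1708918 rpm, and the isoform with the highest mean stands for its gene (102.5 to 103.6% of library totals). The tests had been planned for counts, with limma on log values for other units.

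Genes with at least 1 rpm in at least 3 libraries were tested (20361; 5599 were not) with limma 3.58.1 in R 4.3.3, with trend and robust moderation, on log2(rpm + 1), in 1 model of 8 group means with 16 residual degrees of freedom. The pseudocount understates changes of low genes. Calls were made in 13 comparisons, at an adjusted p (Benjamini-Hochberg over all tested genes) under 0.05. No label describes replicates as independent cultures or plants; the p-values thus cover the variation among these libraries, part or all of which may be technical. The fit was tested on simulated data. Bounds against 3 reads over a group and 95% intervals cover counting error only. A change of a tested member is given with its fitted value where it was called, had an unadjusted p below 0.05 or had groups that did not overlap. For the unadjusted p, for overlap, and for edgeR and DESeq2, no share over all genes is given, so those counts cannot be weighed. Neither an unadjusted p below 0.05 nor groups without overlap count as a call.

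Alternatives were edgeR 4.0.16 and DESeq2 1.42.0 on the recovered reads, other pseudocounts, filters, isoform sums, scaling and samples, a replicate block, and fits without libraries. The members, 12 gene lists (134 genes, 116 tested) and the rule for named genes (all members; at most 5 called genes a list by size of change; CBF1, CBF2, CBF3, DREB2A and ABI3; the 5 closest patterns to GolS1, COR15A and RAB18) were chosen with earlier results of these data known. ERD14 and the heat shock genes named by library were chosen after their values were seen. Coordinates and sequences are from the TAIR10.1 annotation of RefSeq, read with Biopython 1.88. The ends of RAB18 and GolS1 overlap genes on the opposite strand by 11 and 43 bases, and reads there could be counted for either gene.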

Additional observations from a re-analysis of the deposited data

Results flagged for a closer look

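The change of KIN1 from CIM 4 d to SIM 4 d differed between the genotypes, with an interaction of −3.76 on the log2(rpm + 1) scale (SE 0.76, limma adjusted p = 0.0456). KIN1 rose by 2.99 in WT, and every SIM 4 d library there lay above every CIM 4 d library. In siz1-2 the difference was −0.77, and the libraries of the 2 stages overlapped. COR6.6, the neighbour of KIN1 and 95.0% identical to it in coding sequence, had an interaction of −3.32 (limma adjusted p = 0.0775). Over the alternatives of the KIN1 result the adjusted p ranged from 0.000119 to 0.152, and the value from −4.07 to −3.30.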

How the results depend on the processing

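Of 117 member results (9 tested members in 13 comparisons), 52 were called, had an unadjusted p below 0.05 or had groups that did not overlap, 27 of them called. All 27 kept their sign under every alternative run, and 18 kept their call. Of 486 alternative values of the called results 53 lost the call, and of 467 of the others 35 gained one. The causes were not tested, except that a minimum of 5 rpm in 3 libraries leaves RAB18 untested. The counts of called members moved as follows, and the shares of all genes called under these settings are not given here. At 0 d between the genotypes the count of 2 became 1 with a pseudocount of 0.5, with the minimum of 5 rpm and with isoforms summed, 0 with DESeq2 and edgeR, and 6 without the 4 libraries that stood apart (1 to 4 without any 1 library). At CIM 4 d the 2 calls became 1 with a pseudocount of 0.5, the minimum of 5 rpm and the replicate block, and 0 when only the groups compared were fitted (0 to 1 without 1 library). At SIM 4 d, 0 became 2 when only the groups compared were fitted and 3 without the 4 libraries (0 without 1 library). At SIM 6 d the 1 call became 3 with DESeq2, 0 with only the groups compared and 2 without the 4 libraries (0 to 3 without 1 library). From SIM 4 d to SIM 6 d in WT, 0 became 1 with DESeq2. From CIM 4 d to SIM 4 d in siz1-2, 0 became 1 with no filter, isoforms summed or edgeR, and 2 with DESeq2, only the groups compared or without the 4 libraries (0 to 1 without 1 library). The interaction from 0 d to CIM 4 d went from 0 to 2 with a pseudocount of 4 and without the 4 libraries (0 to 1 without 1 library). The interaction from CIM 4 d to SIM 4 d went from 1 to 0 with a pseudocount of 0.5, the minimum of 5 rpm, edgeR, the replicate block or without any 1 library, and to 2 with a pseudocount of 4, DESeq2, only the groups compared or without the 4 libraries. Without any 1 library the 8 calls from 0 d to CIM 4 d were 6 to 8 in WT and 8 in siz1-2, the 5 from CIM 4 d to SIM 4 d in WT were 4 to 5, and the comparisons of SIM 6 d with SIM 4 d had 0. The RAB18 interaction from 0 d to CIM 4 d, −0.89, reversed to 1.06 with DESeq2 (adjusted p = 0.843) and 1.96 with edgeR (0.592). Over all genes, the share of calls that were higher at CIM 4 d than at 0 d was 64.9% in WT and 64.5% in siz1-2, 51.5% and 51.8% with TMM scaling, and 48.4% and 48.6% with median-of-ratios scaling, which also moved it from 39.8% to 53.3% at 0 d between the genotypes. Deviations of samples with the same replicate number correlated between −0.731 and 0.607. Both ends came from siz1-2 against WT at CIM 4 d, where the libraries with the salicylic acid signal bear different numbers. The check cannot tell whether samples of the same number shared a batch, and the main fit used no pairing. The replicate block changed no other count of called members by more than 1.5 times. The patterns over 23 libraries, the levels per kb and the named genes outside the members without the 4 libraries were added after seeing the data. Of 35 such named differences 35 kept their sign and 33 their call. Counting limits COR15A in all libraries and RAB18 and RD29B in culture, where groups held few or no reads.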
